A study of Homo sapiens and Mus musculus with 18 samples.

Results

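The DNA damage signalling and repair genes are a set of 37 genes listed by symbol. They were read in the human count files of a study on drug resistance in pancreatic cancer and keratin 17 (K17, encoded by KRT17), a filament protein of the cytoskeleton. All 37 symbols were found, each on 1 of the 34505 gene rows of the human tables. The list itself uses no measured value. RNA from 12 human libraries was sequenced, in 4 groups of 3. The first 2 groups were L3.6 cells with K17 removed by CRISPR-Cas9 and K17 wild-type L3.6 cells. L3.6 is a human pancreatic line that the labels call adenosquamous. The other 2 groups were PANC-1 cells over-expressing K17 and PANC-1 cells that received an empty vector. PANC-1 is a human pancreatic ductal adenocarcinoma line with almost no KRT17 reads of its own here. No drug or damaging agent is named in the labels of any group. The labels do not say whether the knockout or over-expressing cells were single clones or pools. Nor do they say whether each of the 3 libraries of a group had its own culture. The p-values then measure only the spread between libraries, which may be technical.

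Cells answer DNA breaks with sensors that bind the broken ends, kinases that spread the alarm and enzymes that do the repair. The MRE11, RAD50 and NBN complex binds double-strand ends and activates the kinase ATM, while ATR and CHEK1 guard stalled replication forks. Ubiquitin marks written by RNF8 and RNF168 then help to settle whether the ends are joined directly, by the Ku proteins, PRKDC and LIG4, or copied from the sister chromatid, by BRCA1, PALB2 and BRCA2. The Fanconi anaemia genes act on crosslinks between strands, XRCC1 and PARP1 on single-strand breaks, and XPC, ERCC1 and ERCC2 on bulky lesions. MSH6 and PMS2 act on mismatched bases. Tumours that lose recombination genes, pancreatic ones among them, often respond to platinum drugs and PARP inhibitors.

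Library totals were 9485257 to 15476629 counts in L3.6 and 59671178 to 70789559 counts in PANC-1. Values below are CPM, gene counts scaled to the size of the library, with TMM factors within each line. KRT17 followed the labels: it had 202, 204 and 175 counts in the L3.6 knockout libraries, against 1654, 1112 and 1420 in wild type, and 8597, 9884 and 9228 in PANC-1 with K17, against 2, 0 and 0 with empty vector. Reads remained in the knockout row, and the labels do not say which part of the gene the edit hit. Of the markers that define the lines, the duct epithelium list of 8 genes summed to 3840 to 4161 CPM in L3.6 knockout and 3245 to 3637 CPM in wild type, and to 1205 to 1310 CPM in PANC-1 K17 and 1080 to 1960 CPM with empty vector. The squamous list, 5 of 6 genes present in the files, summed to 395 to 414 CPM in L3.6 knockout and 278 to 301 CPM in wild type, nearly all of it TP63, and KRT6A had 0 counts in all 6 L3.6 libraries. Acinar and islet markers stayed at or under 0.325 CPM in sum in every library. The immune list summed to at most 6.19 CPM in L3.6 and 51.2 CPM in PANC-1, with CD3E at 0. The fibroblast list summed to 169 to 187 CPM in L3.6 knockout and 190.0 to 215 CPM in wild type, and to 139 to 145 CPM in PANC-1 K17 and 26.9 to 44.2 CPM with empty vector, mostly COL1A1. The endothelium list summed to at most 15.8 CPM in L3.6 and 41.9 CPM in PANC-1. Among the PANC-1 libraries, empty vector replicate 2 differed from the rest. Its mitochondrial genes held 18.8% of all counts, against 9.88% to 10.8% elsewhere in PANC-1. The PANC-1 log2 fold changes of the members, except XRCC2, are given with and without this library.

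Per kilobase of the longest annotated transcript, XRCC6, which encodes the Ku70 subunit that binds broken ends, had the highest level of the 37 genes in every group, at 547.5 CPM per kb in L3.6 knockout, 496.5 in wild type, 279 in PANC-1 K17 and 333 with empty vector. PRKDC, the catalytic subunit of DNA-dependent protein kinase, came second at 137, 134, 178 and 153 CPM per kb in the same groups. PRKDC alone supplied 26.7% to 28.5% of all member counts in L3.6 and 31.2% to 34.5% in PANC-1, except in empty vector replicate 2, where it supplied 14.2%. FANCI, the partner of FANCD2 on crosslinked DNA, came next in L3.6, with 100.01 CPM per kb in knockout and 94.8 in wild type. The PANC-1 group levels of FANCI, CHEK1, NBN and RAD50 per kilobase lay close together, at 67.5, 64.3, 76.3 and 66.3 in K17 cells.

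Some rows held few reads or reads that could belong elsewhere. PARP1, which encodes the main enzyme that marks nicked DNA with ADP-ribose, had only 45, 31 and 37 counts in L3.6 knockout, 49, 46 and 31 in wild type, 79, 71 and 104 in PANC-1 K17 and 108, 67 and 106 with empty vector. MDC1, WRN and BARD1 also held few reads, and XRCC5, which encodes the partner of XRCC6 in the Ku dimer, had 12.3 to 17.0 CPM per kb across the groups where XRCC6 had at least 279. No source used here gives the counting method or its strand setting, and some reads of a gene may be missing from its row. RAD50 shared 79.7% of its annotated exon bases with another row on the same strand, and TP53BP1, ERCC1, RAD54L and FANCA shared 23.6% to 28.7% with a gene on the opposite strand. PMS2 has 13 pseudogene rows in the files, of which one reached 2754 counts, CHEK2 has 7 and XRCC6 has 5. The values of these genes are uncertain to that extent.

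**Figure D1:**
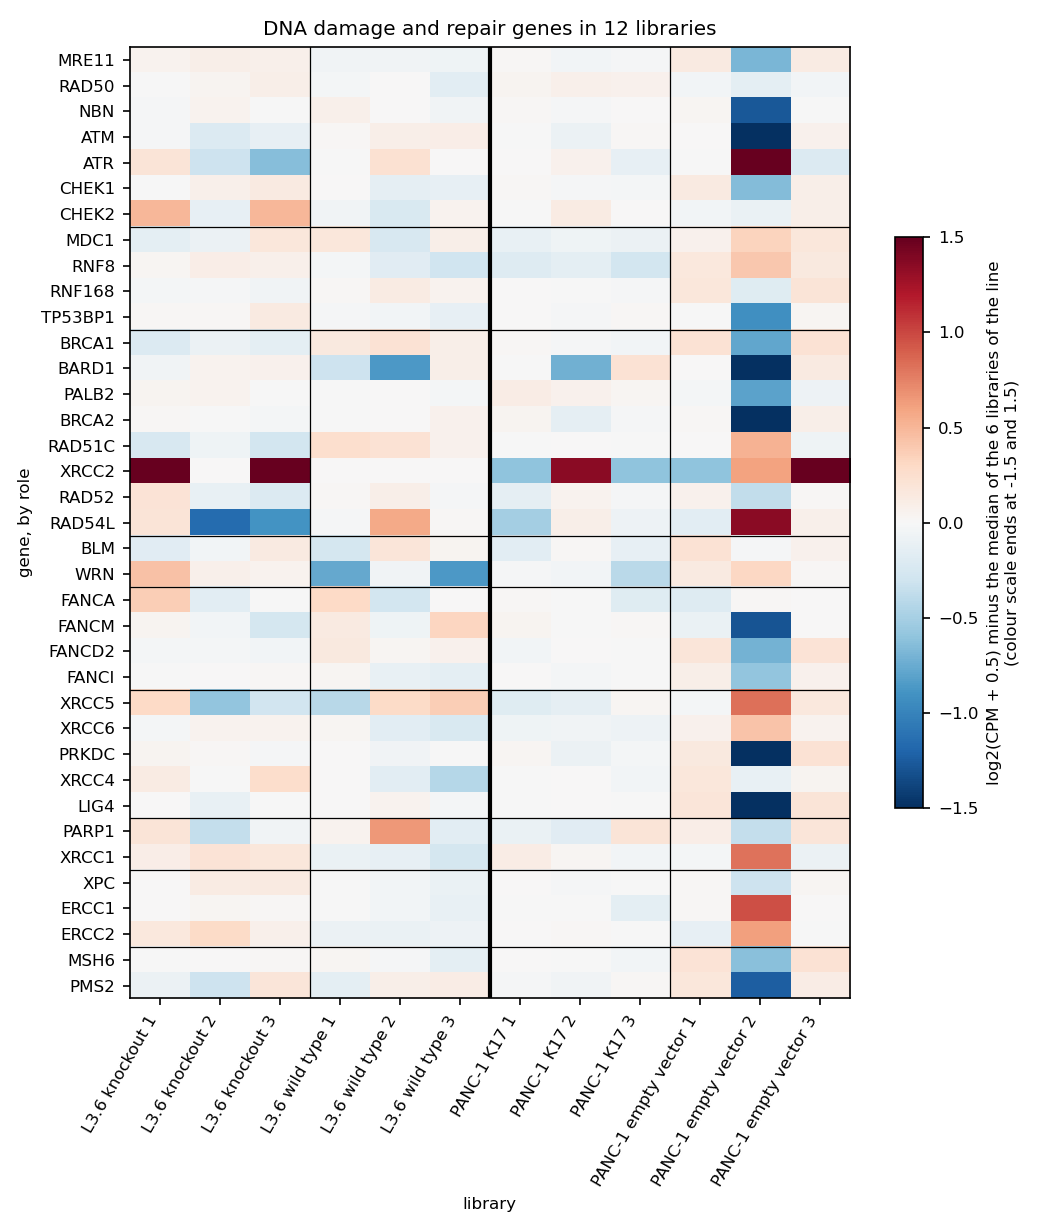
Level of the 37 genes (rows, by role, split by thin lines) in the 12 libraries (columns), as log2(CPM + 0.5) minus the median of the 6 libraries of the line; L3.6 is left of the thick line. Most cells are pale, and the column of PANC-1 empty vector replicate 2 stands out, with 25 genes lower and 10 higher than in the other empty vector libraries among the 35 genes compared.

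Removing K17 from L3.6 cells left most of the repair genes close to wild type. Of the 36 members tested, 2 fell and 1 rose at an adjusted p under 0.05 (edgeR quasi-likelihood test, Benjamini-Hochberg over all genes), which is 8.33% of them, beside 9.61% of all 13891 genes tested. That is near the share of all genes. The genes called higher were 6.1% of all tested and those called lower 3.51%. Over all genes 847 rose and 488 fell, and under upper-quartile scaling 706 rose and 639 fell, with 1 member higher and 3 lower, FANCD2 added. The members' median log2 fold change, knockout over wild type, was 0.03, beside -0.005 over all genes, and 10 members had an unadjusted p under 0.05. The share of all genes at an unadjusted p under 0.05 was not computed, so such counts, here and below, have no background beside them. In these bulk libraries a lower value can mean fewer cells of a kind or less RNA per cell, and the data cannot tell these apart. The 3 genes were BRCA1, RAD51C and XRCC1.

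BRCA1 (chr17:43044295-43170245, minus strand), the ubiquitin ligase that promotes end resection and brings PALB2 and BRCA2 to breaks, had 245, 267 and 256 CPM in the knockout libraries, against 313, 329 and 300.1 CPM in the wild-type libraries. Every knockout library was below every wild-type library (log2 fold change -0.30, SE 0.0552, adjusted p = 0.0143). RAD51C (chr17:58692573-58735611, plus strand), which helps to build and stabilise the recombinase filament, had 52.6, 59.6 and 51.6 CPM in the knockout libraries, against 74.3, 72.6 and 65.0 CPM in the wild-type libraries. Here too the groups did not overlap, and the gene fell (log2 fold change -0.37, SE 0.0833, adjusted p = 0.0295). XRCC1 (chr19:43543040-43580473, minus strand), the scaffold on which single-strand breaks are sealed, moved the other way, with 82.9, 89.0 and 87.0 CPM in the knockout libraries, against 71.6, 70.5 and 64.1 CPM in the wild-type libraries. All 3 knockout libraries were above all 3 wild-type libraries, and the gene rose (log2 fold change 0.33, SE 0.0655, adjusted p = 0.0187). These changes were small, a fold of 0.815 for BRCA1, 0.773 for RAD51C and 1.26 for XRCC1, and the calls depended on single libraries. Without knockout replicate 3 none of the 3 passed, with adjusted p of 0.0881 for BRCA1, 0.129 for RAD51C and 0.104 for XRCC1. Without wild-type replicate 2 none passed either, at 0.0682, 0.101 and 0.0581 in the same order. Without knockout replicate 1 the p was 0.0702 for BRCA1 and 0.0967 for RAD51C. XRCC1 lost its call without knockout replicate 2, at 0.0884, and without wild-type replicate 3, at 0.0525. Without wild-type replicate 1 the count of called members was 5 of 37, with XRCC6 and FANCI added, beside 2493 of the 14463 genes tested. In 1 fit of the 4 human groups none of the 3 passed, at 0.561 for BRCA1, 0.41 for RAD51C and 0.535 for XRCC1. The direction of all 3 genes was the same under each alternative that was run.

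The partners of these genes on the member list gave no call with all 6 L3.6 libraries. Some partners outside that list did, among them LIG3, given below with the other pathway genes. Among the other recombination genes PALB2, which joins BRCA1 to BRCA2, had 76.5, 77.1 and 74.1 CPM in the knockout libraries, against 74.3, 74.4 and 73.1 CPM in the wild-type libraries, so the groups overlapped around the same level (log2 fold change 0.04). BRCA2, which loads the recombinase, had 189.5, 187 and 182 CPM in the knockout libraries, against 186, 187 and 195 CPM in the wild-type libraries (log2 fold change -0.02), with overlapping groups. RAD52, RAD54L and BARD1, of which RAD52 and RAD54L assist strand exchange and BARD1 is the partner of BRCA1 in its ligase, had log2 fold changes of -0.06, -0.77 and 0.36. The lowest adjusted p of these was 0.255, and RAD54L had under 9 CPM in every L3.6 library. XRCC2, a further filament helper, had 42, 0 and 29 counts in knockout and 0 in all wild-type libraries and did not pass the filter on low counts. With 1 library left out 2 of these genes were called, RAD54L without knockout replicate 1 (adjusted p = 0.0494) and XRCC2 without knockout replicate 2 (0.0107), both from sparse rows. In the same order these fits called 807 of 14378 and 574 of 14456 genes of all kinds.

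The sensors and checkpoint kinases had 0 of 7 members past the threshold by edgeR and 0 by DESeq2, with 2 at an unadjusted p under 0.05. By limma-voom 1, ATM, was called, beside 2288 of all 13891 genes tested. MRE11, the nuclease of the sensor complex, had 148, 151 and 150.3 CPM in the knockout libraries, against 138, 138 and 136 CPM in the wild-type libraries. The groups did not overlap, but the difference did not pass (log2 fold change 0.13, SE 0.0452, adjusted p = 0.113). ATM had 154.5, 135 and 144 CPM in the knockout libraries, against 158, 166 and 167 CPM in the wild-type libraries, again without overlap and again short of the threshold (log2 fold change -0.18, SE 0.061, adjusted p = 0.1). NBN, the subunit that holds ATM to the complex, had 183, 193 and 185 CPM in the knockout libraries, against 197, 187 and 179 CPM in the wild-type libraries, with overlap and a log2 fold change of 0.00. RAD50, the end-tethering ATPase, had a log2 fold change of 0.10 and CHEK1 of 0.15. ATR and CHEK2 had -0.30 and 0.40, neither past the threshold (adjusted p = 0.418 and 0.191), and CHEK2 passed without knockout replicate 2 (0.0441).

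Of the 4 genes of the chromatin response 0 passed in L3.6 by edgeR, DESeq2 or limma-voom, and 1, RNF8, had an unadjusted p under 0.05. RNF8, the first ubiquitin ligase at a break, had 37.3, 39.1 and 38.5 CPM in the knockout libraries, against 35.5, 32.3 and 29.4 CPM in the wild-type libraries (log2 fold change 0.24, adjusted p = 0.144). Its groups did not overlap. RNF168, which extends its mark, had a log2 fold change of -0.10. TP53BP1, which shields ends from resection, had 0.12. The sparse row of MDC1 had -0.05. In end joining XRCC6 had 1424, 1513 and 1512.5 CPM in the knockout libraries, against 1486, 1308 and 1240.5 CPM in the wild-type libraries. Wild-type replicate 1 lay inside the knockout range (log2 fold change 0.14, adjusted p = 0.232). PRKDC had 1877, 1855 and 1804 CPM in the knockout libraries, against 1836, 1766 and 1821 CPM in the wild-type libraries, so its groups overlapped (log2 fold change 0.03). LIG4, the ligase that seals the joined ends, and XRCC4, its stabilising partner, had log2 fold changes of -0.04 and 0.32, with an adjusted p of 0.762 and 0.176. XRCC5 had -0.26 and PARP1 -0.31, from low counts, and neither passed.

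Of the Fanconi anaemia genes, FANCD2, whose ubiquitinated form marks crosslinks, had 159.8, 160.4 and 159 CPM in the knockout libraries, against 181, 167 and 172 CPM in the wild-type libraries. Its groups did not overlap, but it passed only under upper-quartile scaling among the settings run (log2 fold change -0.12, adjusted p = 0.168 as fitted). FANCI, FANCM, a translocase that remodels stalled forks, and FANCA, of the core complex, had log2 fold changes of 0.08, -0.23 and 0.05. The 3 nucleotide excision genes all had positive differences without a call. ERCC2, a helicase of the TFIIH complex, came closest, with 58.6, 64.5 and 55.6 CPM in the knockout libraries, against 49.5, 49.1 and 49.7 CPM in the wild-type libraries (log2 fold change 0.27, adjusted p = 0.0586) and no overlap. XPC, the damage sensor, had 0.14 and ERCC1, a subunit of the nuclease that cuts beside the lesion, had 0.07. In mismatch repair MSH6, the mismatch-binding subunit, had 0.05 and PMS2, an endonuclease, had -0.08, with an adjusted p of at least 0.586. BLM and WRN, the RecQ helicases that unwind recombination intermediates, had -0.01 and 0.87, the second from a row of under 5 CPM (adjusted p = 0.143).

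Most of the repair genes had another level in PANC-1 empty vector replicate 2 than in the other PANC-1 libraries. The 37 members summed there to 4459 CPM, against 8099 and 8251 CPM in empty vector replicates 1 and 3 and 7376 to 7633 CPM in the K17 libraries. Among the 35 members with a mean of at least 1 CPM over the 6 PANC-1 libraries, 25 were lower and 10 higher in replicate 2 than in the mean of replicates 1 and 3, on the scale of log2 ratios of CPM + 0.5. The ratios ran between -2.34 and 1.64 with a median of -0.50, beside a median of 0.03 over 12044 genes. The ratio of empty vector replicate 3 to replicate 1 had a median of 0.00 over the same members.

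The members differed over a wide range in this library. PRKDC had 634 CPM in replicate 2, against 2712 and 2844 CPM in replicates 1 and 3. ATM had 145, against 634 and 661 CPM, and BRCA2 had 33.9, against 166 and 175 CPM. These 3 genes have the longest transcripts of the set, at 13509, 13147 and 11986 bases. ERCC1 went the other way, with 149 CPM in replicate 2, against 77.4 and 76.4 CPM, and XRCC1 had 45.4, against 24.9 and 23.9 CPM. ATR, long but higher, had 25.0 CPM, against 8.27 and 7.12 CPM. Its level per kilobase in replicates 1 and 3 was low, at 0.933 CPM, and EIF2AK1P1, on the opposite strand, shares 16.4% of its exon bases. Some shorter members were also low. BARD1 (5499 bases) had the lowest log2 ratio, -2.34, from 2 counts in replicate 2. LIG4 (4180 bases) had -1.79 and PMS2 (2855 bases) -1.38, while RAD50 (8306 bases) had -0.10. Over the 35 members, all read in the same 3 libraries, the ratio had a Spearman correlation of -0.44 with transcript length and 0.54 with GC content, and over all 12044 genes of -0.42 and 0.51. Length and GC content were themselves correlated at -0.41 among the members and -0.26 over all genes. The median ratio of all genes was 0.52 for transcripts up to 2000 bases and -0.71 above 8000 bases, where the 6 members had a median of -1.53.

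**Figure D2:**
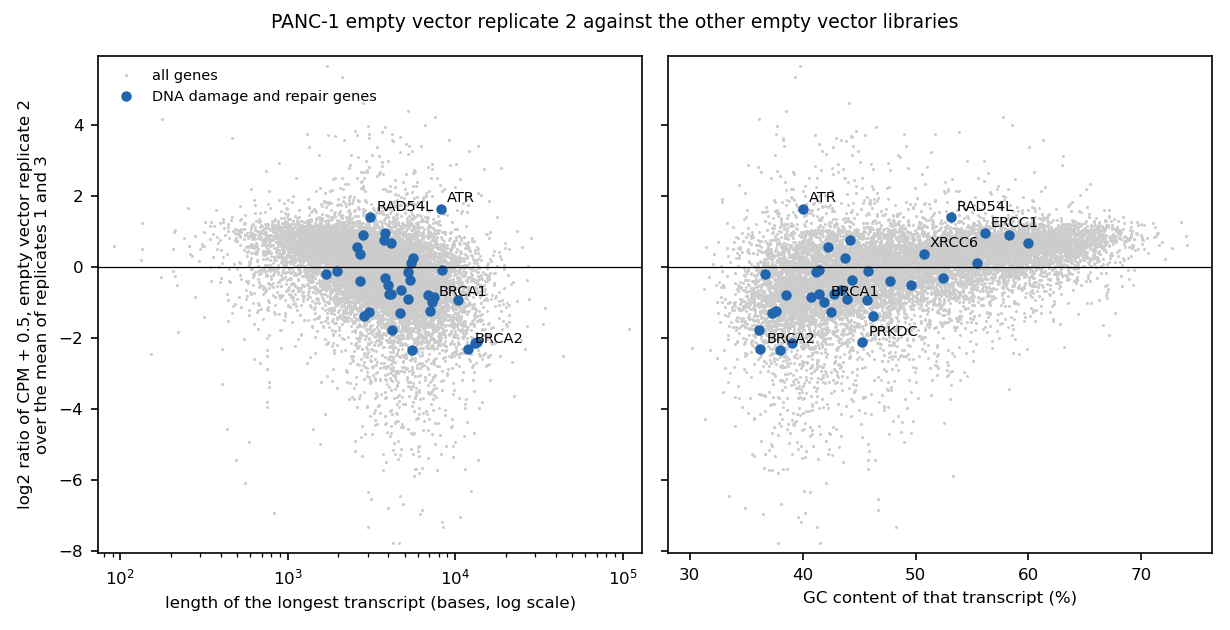
Log2 ratio of CPM + 0.5 in PANC-1 empty vector replicate 2 over the mean of replicates 1 and 3 (vertical axis) against transcript length in bases on a log axis (left) and transcript GC content in percent (right), for 12044 genes (grey) and 35 DNA damage and repair genes (blue). Ratios fall with length (Spearman correlation -0.42 over all genes, -0.44 over the members) and rise with GC content (0.51 and 0.54), and ATR lies high for its length.

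With all 6 PANC-1 libraries, over-expression of K17 moved none of the 37 members past the threshold in edgeR's test, beside 0.644% of the 16295 genes tested (0.583% higher and 0.0614% lower). One member had an unadjusted p under 0.05, RNF8, and DESeq2 called 0 members. The median log2 fold change, K17 over empty vector, was 0.03 for the members and 0.011 over all genes. Their standard errors were large. For PRKDC the log2 fold change was 0.22 with an SE of 0.536, and for BRCA2 it was 0.36 with an SE of 0.573. limma-voom with library quality weights, which gives less weight to a library that stands apart, called 6 members lower on the same 6 libraries, BRCA1, RNF8, MSH6, FANCD2, RNF168 and XRCC6. Over all 16295 genes tested DESeq2 called 595, and limma-voom called 3040, of which 1871 were higher and 1169 lower.

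Without empty vector replicate 2, 12 of the 37 members passed, 11 lower and 1 higher in K17 cells, which is 32.4% of the members, beside 20.7% of the 16640 genes tested. The share called lower was 29.7% of the members, beside 9.25% of all genes, and the share called higher over all genes was 11.4%. The members' median log2 fold change was -0.12, beside 0.007 over all genes, and 28 of 37 members had a negative value, 75.7% beside 49.0% of all genes. The changes were small in size, between -0.36 for RNF8 and 0.10 for RAD50 among the called members. With empty vector replicate 1 or 3 left out as well, 1 empty vector library remains, and the members' median log2 fold change was -0.11 in each fit. The count of called members was 12 to 14 under the other scalings, filters and tools, beside 3327 to 3871 genes of all kinds. In 1 fit of the 4 human groups, which share 1 estimate of the spread, it was 0, beside 1239 of the 15758 genes tested. There 8 members had an unadjusted p under 0.05, and the lowest adjusted p was 0.0574, for RNF8. Under upper-quartile scaling, under which 1549 genes of all kinds were called higher and 2193 lower in place of 1902 and 1540, 14 members were lower and none higher.

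**Figure D3:**
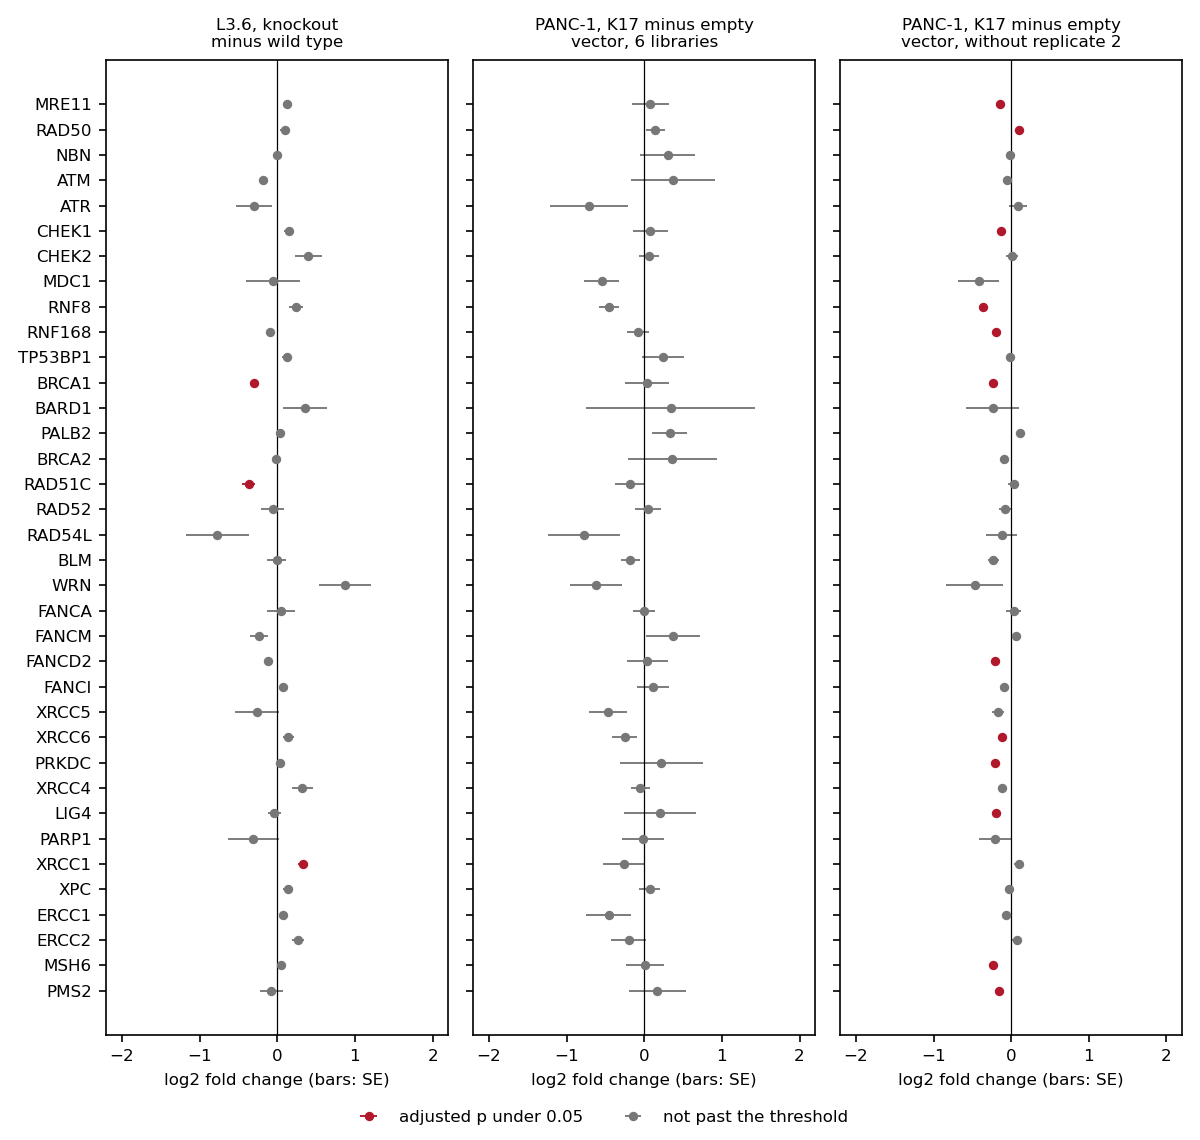
Log2 fold change (horizontal axis) with its SE (bars) for 36 of the 37 genes, knockout over wild type in L3.6 (left), K17 over empty vector in PANC-1 with 6 libraries (middle) and without empty vector replicate 2 (right). Genes with an adjusted p under 0.05 are red, 3 on the left, 0 in the middle and 12 on the right, where the bars are short and most points lie left of 0. XRCC2 is not shown, as it was not tested in L3.6.

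Recombination and crosslink genes gave 2 of the calls. BRCA1 had 198, 195 and 191 CPM in the K17 libraries, against 229 and 228 CPM in empty vector replicates 1 and 3 and 114 CPM in replicate 2. The K17 libraries lay below replicates 1 and 3 and above replicate 2, so the left-out library alone set the sign with 6 libraries (log2 fold change -0.24, SE 0.0274, adjusted p = 0.0013 without it, log2 fold change 0.03 with it). FANCD2 had 99.9, 103 and 102 CPM in the K17 libraries, against 117 and 118 CPM in empty vector replicates 1 and 3 and 62.4 CPM in replicate 2 and showed the same arrangement (log2 fold change -0.21, SE 0.0299, adjusted p = 0.00309 without replicate 2). The other recombination genes did not pass in edgeR's test. PALB2 had 96.8, 94.2 and 91.7 CPM in the K17 libraries, against 87.9 and 85.4 CPM in empty vector replicates 1 and 3 and 51.1 CPM in replicate 2 and lay slightly higher in the K17 libraries (log2 fold change 0.12, SE 0.0363, adjusted p = 0.0632). BRCA2 had 169, 149.8 and 163 CPM in the K17 libraries, against 166 and 175 CPM in empty vector replicates 1 and 3 and 33.9 CPM in replicate 2, with overlapping groups (log2 fold change -0.09). RAD51C, which fell in the L3.6 knockout, had 18.3, 18.5 and 18.3 CPM in the K17 libraries, against 18.4 and 17.5 CPM in empty vector replicates 1 and 3 and 26.6 CPM in replicate 2, so the K17 libraries lay between the empty vector values (log2 fold change 0.03). PALB2 passed with length and GC offsets and with the 1 CPM filter (adjusted p = 0.0266 and 0.0442). FANCI and FANCM had log2 fold changes of -0.09 and 0.06, and BLM and WRN of -0.23 and -0.47, none past the threshold in edgeR's test. DESeq2 and upper-quartile scaling called FANCI (0.00774 and 0.00773) and BLM (0.0188 and 0.0239) lower, and BLM also passed with no filter (0.038) and without K17 replicate 2 (0.0343). BARD1, RAD52, RAD54L and FANCA had -0.24, -0.08, -0.12 and 0.03 and did not pass. XRCC2 had 0, 86 and 0 counts in the K17 libraries, against 0, 45 and 295 in empty vector replicates 1, 2 and 3, which gives no usable fold. With all 6 libraries the log2 fold change was 0.04, 0.33, 0.36 and -0.18 for FANCD2, PALB2, BRCA2 and RAD51C. It was 0.11, 0.37, -0.18 and -0.62 for FANCI, FANCM, BLM and WRN. It was 0.34, 0.05, -0.78 and 0.00 for BARD1, RAD52, RAD54L and FANCA.

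Both ubiquitin ligases of the chromatin response fell. RNF8 (chr6:37353972-37394738, plus strand) had 31.7, 32.6 and 29.9 CPM in the K17 libraries, against 40.4 and 40.2 CPM in empty vector replicates 1 and 3 and 47.9 CPM in replicate 2. Its K17 libraries were below all 3 empty vector libraries, so its direction did not depend on replicate 2 (log2 fold change -0.36, SE 0.0529, adjusted p = 0.0036 without replicate 2, and -0.45 with it). RNF168 had 101, 99.7 and 98.8 CPM in the K17 libraries, against 112 and 115 CPM in empty vector replicates 1 and 3 and 88.3 CPM in replicate 2 and fell without replicate 2 (log2 fold change -0.19, SE 0.0281, adjusted p = 0.00392). TP53BP1, which binds the mark they write, had 435, 428 and 440.4 CPM in the K17 libraries, against 434 and 444 CPM in empty vector replicates 1 and 3 and 229 CPM in replicate 2 and did not differ past the threshold (log2 fold change -0.02). MDC1, the adaptor that brings RNF8 to breaks, had under 1 CPM in every PANC-1 library. Its log2 fold change was -0.42 without replicate 2 and -0.55 with it, and it did not pass. With all 6 libraries RNF168 had -0.08 and TP53BP1 0.24.

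All 5 end joining genes had negative values, and 3 of them passed. PRKDC had 2495, 2304 and 2399.8 CPM in the K17 libraries, against 2712 and 2844 CPM in empty vector replicates 1 and 3 and 634 CPM in replicate 2. The K17 libraries were below replicates 1 and 3 and above replicate 2 (log2 fold change -0.21, SE 0.0372, adjusted p = 0.0075 without it). XRCC6 had 758, 763 and 750.3 CPM in the K17 libraries, against 827 and 818.5 CPM in empty vector replicates 1 and 3 and 1064 CPM in replicate 2, lower in K17 than in each empty vector library (log2 fold change -0.12, SE 0.0236, adjusted p = 0.0111). LIG4 had 56.9, 57.5 and 57.0 CPM in the K17 libraries, against 65.2 and 65.3 CPM in empty vector replicates 1 and 3 and 18.5 CPM in replicate 2. Its 3 K17 values were nearly equal and stood between the pair above and replicate 2 below (log2 fold change -0.19, SE 0.034, adjusted p = 0.00765). XRCC4 and XRCC5 had log2 fold changes of -0.12 and -0.17 and did not pass, although XRCC4 passed under upper-quartile scaling (adjusted p = 0.0464). With all 6 libraries the log2 fold change was 0.22, -0.25, 0.20, -0.05 and -0.47 for PRKDC, XRCC6, LIG4, XRCC4 and XRCC5. PRKDC lost its call without empty vector replicate 3 as well, at an adjusted p of 0.0572, and XRCC6 and LIG4 without replicate 1 as well, at 0.0693 and 0.0526.

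Among the sensors and kinases, MRE11 and CHEK1 fell and RAD50 rose. MRE11 had 216, 207 and 212 CPM in the K17 libraries, against 235 and 232 CPM in empty vector replicates 1 and 3 and 133 CPM in replicate 2 (log2 fold change -0.15, SE 0.0284, adjusted p = 0.0117 without replicate 2). CHEK1 had 271, 267 and 263 CPM in the K17 libraries, against 297 and 287 CPM in empty vector replicates 1 and 3 and 172 CPM in replicate 2 (log2 fold change -0.13, SE 0.0294, adjusted p = 0.0209). In both genes the K17 values lay under replicates 1 and 3 and over replicate 2. RAD50, whose row shares most of its exon bases with another, had 543, 557 and 552 CPM in the K17 libraries, against 513 and 513 CPM in empty vector replicates 1 and 3 and 478 CPM in replicate 2, above each empty vector library (log2 fold change 0.10, SE 0.0251, adjusted p = 0.0321). ATM, NBN, ATR and CHEK2 showed no call, with log2 fold changes of -0.06, -0.02, 0.09 and 0.01. With all 6 libraries the log2 fold change was 0.08, 0.08 and 0.14 for MRE11, CHEK1 and RAD50. It was 0.37, 0.30, -0.71 and 0.06 for ATM, NBN, ATR and CHEK2. The RAD50 call was lost under upper-quartile scaling and without empty vector replicate 1, empty vector replicate 3, K17 replicate 2 or K17 replicate 3 (adjusted p = 0.201, 0.124, 0.16, 0.086 and 0.0655). CHEK1 lost its call with length and GC offsets (0.0535) and without empty vector replicate 1 (0.12), K17 replicate 2 (0.0551) or K17 replicate 3 (0.0617), and MRE11 without empty vector replicate 1 (0.0713).

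Both mismatch repair genes fell. MSH6 (chr2:47695530-47810101, plus strand) had 329.8, 327 and 321 CPM in the K17 libraries, against 378.5 and 383 CPM in empty vector replicates 1 and 3 and 212 CPM in replicate 2, and it had the lowest adjusted p of the members (log2 fold change -0.23, SE 0.0247, adjusted p = 0.00101). FBXO11, on the opposite strand, shares 16.2% of its exon bases. PMS2 had 61.9, 60.5 and 63.4 CPM in the K17 libraries, against 70.8 and 67.5 CPM in empty vector replicates 1 and 3 and 26.3 CPM in replicate 2 and passed narrowly (log2 fold change -0.16, SE 0.042, adjusted p = 0.0351). Its call was lost without either remaining empty vector library (0.193 and 0.0536) and without K17 replicate 1 or 2 (0.0721 and 0.0931). The single-strand and nucleotide excision genes gave no call. XRCC1, which rose in the L3.6 knockout, had 27.7, 26.1 and 24.7 CPM in the K17 libraries, against 24.9 and 23.9 CPM in empty vector replicates 1 and 3 and 45.4 CPM in replicate 2 (log2 fold change 0.10). The K17 range overlapped that of replicates 1 and 3. PARP1, XPC, ERCC1 and ERCC2 had log2 fold changes of -0.21, -0.03, -0.07 and 0.07. With all 6 libraries the log2 fold change was 0.01, 0.17 and -0.26 for MSH6, PMS2 and XRCC1. It was -0.01, 0.07, -0.46 and -0.20 for PARP1, XPC, ERCC1 and ERCC2. MSH6, BRCA1, FANCD2, RNF8 and RNF168 passed in 14 of the 15 settings run without empty vector replicate 2, the exception being 1 fit of the 4 human groups.

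**Figure D4:**
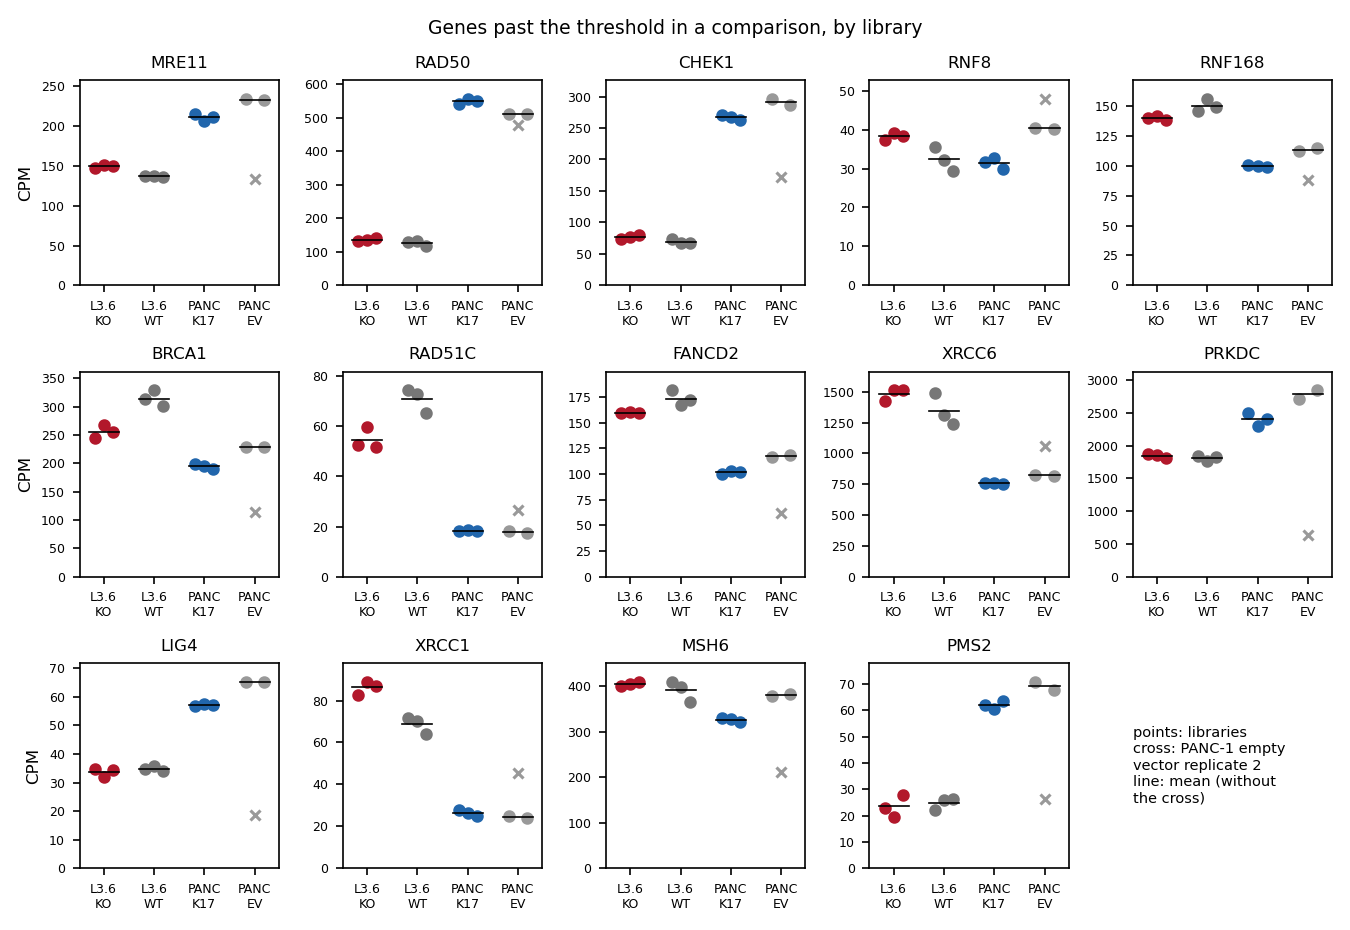
CPM by library of the 14 genes past the threshold in at least 1 comparison, each panel with its own axis from 0, groups left to right L3.6 knockout (KO), L3.6 wild type (WT), PANC-1 K17 and PANC-1 empty vector (EV). Lines are group means, taken without empty vector replicate 2, which is drawn as a cross and lies far below the other empty vector libraries for genes such as PRKDC, LIG4 and BRCA1 and above them for XRCC1, RAD51C and XRCC6.

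The effect of K17 was then compared between the lines in 1 fit of all 12 libraries, as K17 over empty vector in PANC-1 minus wild type over knockout in L3.6. No member passed in edgeR's test, beside 1.54% of the 17583 genes tested, 1.25% above 0 and 0.284% below, and 2 members had an unadjusted p under 0.05. DESeq2 also called 0, beside 783 of all genes, and limma-voom with quality weights called 6, beside 2796 of all genes. Without empty vector replicate 2, BRCA1 and XRCC1 passed, 2 of 37 beside 11.5% of the 15758 genes tested, 8.72% above 0 and 2.82% below. For BRCA1 the difference was -0.46 on the log2 scale (SE 0.0994, adjusted p = 0.0127), since the gene was lower with K17 in PANC-1 and lower without K17 in L3.6. For XRCC1 the difference was 0.50 (SE 0.127, adjusted p = 0.0271). Of its 2 parts only the L3.6 change passed on its own. Upper-quartile scaling, under which the median over all genes was -0.11 in place of 0.05, called 9 members, 1 above 0 and 8 below, and split all called genes 1204 above and 1301 below 0 in place of 1374 and 445. The calls needed both remaining empty vector libraries. Without replicate 1 as well the adjusted p was 0.0755 for BRCA1 and 0.0886 for XRCC1, and without replicate 3 as well it was 0.0711 and 0.145. XRCC1 was also lost without L3.6 knockout replicate 3 (0.0563), K17 replicate 1 (0.0731) or K17 replicate 2 (0.0643). The 2 lines differ in origin, in the way K17 was changed and in depth, and these cannot be told apart.

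The upstream sequences of the called members are shown because several of them fell in the same comparison in PANC-1. The 3 members called in L3.6 and the 3 further members with the lowest p among those that fell in PANC-1 without empty vector replicate 2 are given. Each line holds the 250 bases before an annotated transcription start (RefSeq, GRCh38.p14), read 5′ to 3′ on the gene's strand. Capitals mark the letters CCAAT, or ATTGG for the same letters on the other strand, the box bound by the factor NF-Y. Where the table lists several starts (2 for BRCA1 and RAD51C, 4 for MSH6), the one with most matches is shown.
BRCA1, chr17:43125365-43125614, minus strand: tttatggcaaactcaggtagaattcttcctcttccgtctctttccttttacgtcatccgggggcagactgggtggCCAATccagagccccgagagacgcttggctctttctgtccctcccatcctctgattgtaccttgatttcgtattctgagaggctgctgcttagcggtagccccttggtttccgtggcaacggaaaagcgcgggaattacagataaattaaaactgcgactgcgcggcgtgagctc
RAD51C, chr17:58692323-58692572, plus strand: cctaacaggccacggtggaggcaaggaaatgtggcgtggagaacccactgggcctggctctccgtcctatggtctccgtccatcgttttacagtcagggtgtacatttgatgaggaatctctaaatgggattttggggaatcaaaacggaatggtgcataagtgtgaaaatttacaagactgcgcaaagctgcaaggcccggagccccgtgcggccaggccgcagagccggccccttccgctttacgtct
XRCC1, chr19:43575528-43575777, minus strand: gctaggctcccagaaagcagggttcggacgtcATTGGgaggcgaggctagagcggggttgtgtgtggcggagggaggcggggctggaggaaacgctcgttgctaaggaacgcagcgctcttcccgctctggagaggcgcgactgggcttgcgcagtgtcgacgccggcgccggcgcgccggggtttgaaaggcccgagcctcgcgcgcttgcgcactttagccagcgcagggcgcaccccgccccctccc
MSH6, chr2:47782895-47783144, plus strand: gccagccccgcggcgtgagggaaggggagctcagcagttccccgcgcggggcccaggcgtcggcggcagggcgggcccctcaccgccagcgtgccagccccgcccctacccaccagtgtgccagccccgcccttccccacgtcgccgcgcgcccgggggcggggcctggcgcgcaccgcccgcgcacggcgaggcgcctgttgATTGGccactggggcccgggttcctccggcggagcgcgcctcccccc
FANCD2, chr3:10026187-10026436, plus strand: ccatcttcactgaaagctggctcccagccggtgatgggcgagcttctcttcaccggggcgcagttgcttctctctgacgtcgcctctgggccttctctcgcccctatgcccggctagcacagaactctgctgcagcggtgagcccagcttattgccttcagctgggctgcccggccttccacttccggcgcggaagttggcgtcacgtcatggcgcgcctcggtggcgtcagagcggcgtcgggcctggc
RNF8, chr6:37353733-37353982, plus strand: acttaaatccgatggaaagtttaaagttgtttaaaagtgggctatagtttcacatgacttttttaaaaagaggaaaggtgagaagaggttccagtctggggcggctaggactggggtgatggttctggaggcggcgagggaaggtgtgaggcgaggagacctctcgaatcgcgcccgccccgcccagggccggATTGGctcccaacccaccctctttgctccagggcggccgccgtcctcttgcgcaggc
Among these genes BRCA1, XRCC1, MSH6 and RNF8 held the letters, and RAD51C and FANCD2 did not. The promoter table covered 32 of the 37 members. In the same 250 bases, at any listed start, 20 of the 32 members (62.5%) held the letters, and 8 of the 10 listed members that fell in PANC-1 (80.0%), beside 37.0% of all 27305 genes. A gene with more listed starts has more places for a match. Counted by start, 26 of 49 member promoters (53.1%) held the letters, beside 32.0% of all 35116. The 10 members were picked by their calls in these data, and a link between the letters and the lower values was not tested. A match describes letters only and does not show that a factor binds there.

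The other genes of these pathways were read from 10 lists with 135 symbols, none of them members. In L3.6, 4 of 127 tested rose and 7 fell, together 8.66% beside 9.61% of all genes. The share that rose was 3.15%, beside 6.1% of all genes, and the share that fell was 5.51%, beside 3.51%. Log2 fold changes are given in brackets. In base excision repair MPG (0.55), a glycosylase, and APEX1 (0.43), which cuts at abasic sites, rose and LIG3 (-0.39), the ligase that works with XRCC1, fell. In mismatch repair 2 of 5 fell, MLH3 (-0.57) and PMS1 (-0.26). In recombination RECQL5 (-0.60), a helicase, and RBBP8 (-0.32), which starts resection with the MRE11 complex, fell. Of the Fanconi genes FANCG (0.24) rose and the helicase gene BRIP1 (-0.25) fell. CLSPN, the adaptor through which ATR activates CHEK1, fell (-0.29). CDKN1A, the cell-cycle inhibitor induced by p53, rose (0.78), and it was the 1 call in the list of p53 damage targets.

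In PANC-1 0 of 132 tested pathway genes passed with 6 libraries in edgeR's test, and 8 had an unadjusted p under 0.05. DESeq2 called 1 and limma-voom 30, beside 595 and 3040 of all 16295 genes tested. Without empty vector replicate 2, 14 rose and 25 fell, together 29.5%, beside 20.7% of all genes. The share that rose was 10.6%, beside 11.4% of all genes, and the share that fell was 18.9%, beside 9.25%. In the checkpoint list 4 of 13 fell, among them TOPBP1 (-0.26), CDC25A (-0.36) and H2AX (-0.28), where TOPBP1 activates ATR. In recombination 6 of 19 fell and 1 rose, with EXO1 (-0.36), RMI1 (-0.27) and RAD51AP1 (-0.24) lowest in p. In base excision repair 4 of 18 rose and 2 fell. UNG, which removes uracil from DNA, had the lowest p of the list (-0.61), followed by PARG (-0.15) and PARP3 (0.40). The 5 calls in the list around TP53BP1 and the BRCA1-A complex were split, with BABAM2 (0.44) and SHLD2 (0.17) higher and 3 genes lower, PAXIP1 (-0.21), RIF1 (-0.21) and USP28 (-0.13). In nucleotide excision repair 5 of 15 rose and 1 fell, with CETN2 (0.35) and DDB2 (0.27) among the higher and UVSSA (0.19) next. In mismatch repair 3 of 5 fell, MLH3 (-0.16) among them. Translesion synthesis gave REV1 (-0.28) and POLH (-0.27) lower and UBE2B (0.16) higher. In the remaining lists FANCB (-0.60), TDP1 (-0.16), TDP2 (-0.81) and SESN1 (-0.31) fell and the death receptor gene FAS rose (0.61).

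Lists of cell-cycle genes were read beside the repair genes. In L3.6, 1 of 19 tested DNA replication genes rose, CDT1 (5.26%), and 3 of 15 mitosis genes rose, AURKB, CDK1 and BUB1B (20.0%), beside 6.1% of all genes, with none lower. In PANC-1 without empty vector replicate 2, 7 of 18 replication genes (38.9%) and 4 of 15 mitosis genes (26.7%) fell, beside 9.25% of all genes, and none rose. The median log2 fold change of the replication list was -0.29 with 6 libraries and -0.20 without replicate 2, and that of the mitosis list -0.18 and -0.13. Their summed levels were 952 to 986 CPM for replication in K17 cells, against 1073 to 1101 CPM in empty vector replicates 1 and 3 and 1501 CPM in replicate 2, and 2888 to 3053 CPM for mitosis in K17 cells, against 3275 to 3382 CPM in replicates 1 and 3 and 3657 CPM in replicate 2. COL1A1, of the fibroblast list, averaged 139.8 CPM in K17 cells, against 22.0 and 22.2 CPM in empty vector replicates 1 and 3 and a mean of 28.1 CPM over all 3. COL3A1, of the same list, went the other way. It averaged 0.399 CPM in K17 cells, against 3.18 and 2.85 CPM in replicates 1 and 3 and a mean of 2.87 CPM over all 3. The part of these lists in the change of the repair genes was not tested.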

How the data were processed

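The deposited files hold raw counts per gene for each library, unnormalized. Per the submitters' processing notes, bcl2fastq 1.8.4, STAR 2.7.3a and kallisto 0.46.2 were used with GRCh38. No source used here gives the counter, annotation release or strand setting. RNA was total RNA in a TruSeq RNA library, per the labels' protocols. The 6 mouse files were not analysed here. Symbols came from a reference table of gene names, and transcript length, GC content and overlaps from the GENCODE annotation of GRCh38, which may not be the authors' annotation. Each line was fitted with edgeR 4.0.16 (filterByExpr with a minimum count of 10, TMM factors, robust quasi-likelihood test) on all genes, with Benjamini-Hochberg adjusted p under 0.05 as the threshold, and all 12 libraries in 1 fit for the difference between lines. The SE of a log2 fold change is its size divided by the square root of F. The script was tested on simulated data. Alternatives were RLE and upper-quartile factors, other filters, DESeq2 1.42.0, limma 3.58.1, length and GC offsets, a replicate block, 1 fit of 4 groups and each library left out. The fits without PANC-1 empty vector replicate 2 were rerun under the same alternatives, chosen after seeing the data. The 1 fit of 4 groups gives nothing further for the difference between lines, whose fit already holds all groups. Members past the threshold were named with all their values, then the 2 most abundant others of each role, with further members by value or range, and up to 3 called genes per pathway list by lowest p. Context lists (DNA replication, mitosis) and marker lists are given as counts or summed CPM. The members and all lists were chosen with earlier results of these data known. With totals of 9485257 counts or more, 3 counts, taken as the floor of detection, equal at most 0.324 CPM after TMM scaling. This floor covers counting error only.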

Additional observations from a re-analysis of the deposited data

Results flagged for a closer look

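BRCA1 had a different response to K17 in the 2 lines by the test of the difference itself, without PANC-1 empty vector replicate 2. The difference, K17 over empty vector in PANC-1 minus wild type over knockout in L3.6, was -0.46 on the log2 scale (SE 0.0994, adjusted p = 0.0127). XRCC1 was flagged by the same test, at 0.50 (SE 0.127, adjusted p = 0.0271). With all 12 libraries neither passed, with values of -0.28 for BRCA1 and 0.01 for XRCC1. For BRCA1 the L3.6 log2 fold change, knockout over wild type, was -0.30, and that of PANC-1, K17 over empty vector, was -0.24 without replicate 2. For XRCC1 the values were 0.33 and 0.10. BRCA1 passed in 18 of the 20 settings run without replicate 2 and XRCC1 in 14 of 20. BRCA1 was lost without empty vector replicate 1 or 3 as well (adjusted p = 0.0755 and 0.0711). XRCC1 was lost without these as well (0.0886 and 0.145), without L3.6 knockout replicate 3 (0.0563), K17 replicate 1 (0.0731) or K17 replicate 2 (0.0643), and with the replicate block (0.0622). Groups held 3 libraries, too few to test any 1 library as an outlier by its gap to the others.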

How the results depend on the processing

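In L3.6, 3 members were called. The count was 0 with the replicate block and in 1 fit of the 4 human groups, 5 with limma-voom, and 0 to 5 with 1 library left out, 0 without knockout replicate 3 or wild-type replicate 2. In PANC-1 with 6 libraries it was 0, 6 with limma-voom, and 0 to 12 with 1 library left out, 12 only without empty vector replicate 2. Of the 11 members that then fell, 8 had the opposite sign with 6 libraries. With 1 library left out, the log2 fold changes ran from -0.15 to 0.21 for MRE11, -0.13 to 0.22 for CHEK1, -0.24 to 0.18 for BRCA1, -0.21 to 0.18 for FANCD2, -0.21 to 0.51 for PRKDC, -0.19 to 0.45 for LIG4, -0.23 to 0.14 for MSH6 and -0.16 to 0.40 for PMS2, each at its lowest without replicate 2. limma-voom on 6 libraries gave -0.23 for BRCA1, -0.20 for FANCD2 and -0.22 for MSH6. The fit without empty vector replicate 2 called 12 members, 0 in 1 fit of the 4 human groups, and 6 to 11 with a further library left out, 6 without empty vector replicate 1. For the difference between lines the count was 0 with 12 libraries, 6 with limma-voom, and 0 to 2 with 1 library left out. Without empty vector replicate 2 it was 2, with 9 under upper-quartile factors, 6 under DESeq2, 8 under limma-voom, 4 with no filter, 5 with the 1 CPM filter and 1 with the replicate block, and 0 to 6 with a further library left out, 0 without empty vector replicate 1 or 3. Beside these, the difference without replicate 2 called 2505 genes of all kinds under upper-quartile factors, 2617 under DESeq2 and 3672 under limma-voom, of 15758 tested. It called 1656 of 26743 genes with no filter, 2036 of 14052 with the 1 CPM filter and 1100 of 15758 with the block. The cause of these changes in the calls was not tested.

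The deviations of libraries of the same replicate number had correlations of -0.121 to 0.0223 in L3.6 and 0.022 to 0.0863 in PANC-1. Those of unlike number had correlations of -0.0905 to 0.123 in L3.6 and -0.0756 to 0.0546 in PANC-1. With 3 libraries per group this check cannot settle whether the numbers pair the libraries. With the replicate block 0 members were called in PANC-1 with 6 libraries, 11 without replicate 2 and 0 in the difference between lines with 12 libraries. Over all genes, L3.6 calls numbered 1335 as fitted, 2288 with limma-voom, 665 with the block, 204 in 1 fit of 4 groups, and 574 to 2493 with 1 library left out. PANC-1 calls numbered 105 as fitted and 595 under DESeq2, 3040 with limma-voom, 391 with length and GC offsets, 363 in 1 fit of 4 groups, 0 with the block and 0 to 3442 with 1 library left out. For the difference between lines, 270 genes of all kinds were called as fitted, 783 under DESeq2, 2796 with limma-voom, 151 with the block, 644 with length and GC offsets and 138 to 1819 with 1 library left out. Without empty vector replicate 2, the PANC-1 calls were 3442 as fitted, 1239 in 1 fit of 4 groups, 2252 with the block and 2053 to 2837 with a further library left out, and those of the difference were 1819, 3672 with limma-voom, 1100 with the block and 826 to 3105. Under the block BRCA1, RAD51C and XRCC1 had an adjusted p of 0.0521, 0.0541 and 0.068 in L3.6, and RAD50 and PMS2 of 0.112 and 0.143 in PANC-1 without replicate 2, where XRCC2, with reads in 2 of the 5 libraries, was called (0.00626). Of the values of single named genes, 371 in L3.6 and 359 in PANC-1 kept direction and side of the threshold. Another 16 and 0 lost a call, 5 and 7 gained one with the same sign, 0 and 11 changed sign and call, and 43 and 56, with no call either way, changed sign or moved by more than the SD between replicates. Depth limits the sparse rows (PARP1, MDC1, WRN, XRCC2) most, in L3.6 above all, where the libraries are smaller.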
